A study of Mus musculus with 41 samples.

Results

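The effect of losing Hbs1l on ribosome footprints was compared between 2 mouse tissues, the embryo and the cerebellum. The comparison was the difference of effects, defined for each gene as the log2 change from control to mutant embryos minus the log2 change from control to mutant cerebella. The 12 footprint libraries of these tissues, of 41 libraries in the whole series, entered 1 model, and 14624 of the 22438 counted genes had enough fragments to be tested. A positive difference means that footprints rose more, or fell less, in mutant embryos than in mutant cerebella. A negative difference means the reverse.

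Ribosome profiling sequences the mRNA fragments that translating ribosomes shield from nuclease, so a gene's fragment count follows both its mRNA level and how heavily that mRNA is translated. The embryos were whole E8.5 embryos on C57BL/6NJ, either Hbs1l -/- or wildtype, with 3 libraries each and 5 embryos pooled per library. The cerebella came from P14 C57BL/6J mice, either Atoh-Cre;Hbs1l cKO or Atoh-Cre;Hbs1l +/+, with 3 libraries each and 1 cerebellum per library. Both cerebellar groups therefore carried the Atoh1-Cre transgene, which deletes in the granule cell lineage and other descendants of the rhombic lip, and by the study's methods the cKO mice were Hbs1l fl/-, so that cells outside that lineage carried 1 null allele in cKO cerebella and none in controls. The mutant allele removes an exon used by full-length Hbs1l and leaves its second isoform, which lacks the GTPase domain, untouched. The study's methods list the cKO mice as n-Tr20 B6J/B6J, homozygous for a C57BL/6J mutation that impairs a brain-specific arginine tRNA. The methods also describe breeding this mutation into the Hbs1l null line. The n-Tr20 genotype of the profiled embryos is not given in the sources used here. Because embryos and cerebella also differed in age, strain, kind of mutation, pooling and labelled batch (Batch 1 for embryos and Batch 2 for cerebella), the contribution of tissue to any difference of effects cannot be told apart from these.

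HBS1L is a translational GTPase that pairs with PELO. Together they enter ribosomes that have stalled near the end of a truncated mRNA, and open the way for the subunits to be split and the mRNA to be degraded. At E8.5 the embryo is forming its heart tube, neural tube, first somites and first blood cells. At P14 the last granule cell progenitors of the cerebellum are leaving the cell cycle at its outer surface, while most granule cells are already postmitotic neurons.

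Embryo libraries held 2634480 to 7298812 assigned fragments and cerebellum libraries 10919139 to 22591768, so that embryo values carry the larger counting error. The labels held for tissue: 36 synaptic and neuronal genes summed to 183 to 218 counts per 1000000 fragments (CPM) in embryos and 13925 to 18519 in cerebella, whereas 27 Hox genes, which mark the trunk and hindbrain and are silent in the cerebellum, summed to 242 to 442 CPM in embryos and to under 1 CPM in 4 of the 6 cerebella. The other two, cKO cerebella 1 and 3, held 3.54 and 9.62 CPM of Hox footprints, and the same libraries held the noradrenergic gene Dbh at 21.1 and 43.6 CPM and the serotonin transporter Slc6a4 at 22.5 and 64.8, against at most 2.02 and 0.736 in the other 4. How far these dissections took in neighbouring hindbrain is not given in the sources used here and was not tested, so calls that rest on these 2 libraries may not be of the cerebellum. The Y-linked genes, 4 counted together, were at 188 to 212 CPM in the 3 mutant embryo pools and at 21.5, 35.1 and 119 in the controls. Among cerebella, cKO replicate 1 and control replicate 1 held 203 and 234 CPM and the others under 5. Control cerebellum 3 stood apart in its marker genes, with 16255 CPM of 26 Purkinje cell genes against 27701 and 26179 in the other controls. In a bulk library, fewer cells of one kind and less RNA per cell cannot be told apart.

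Hbs1l itself (chromosome 10, 21295979 to 21368898, plus strand, GRCm38) fell in both tissues. It was at 2.90, 2.72 and 8.74 CPM in mutant embryos and at 58.5, 50.9 and 49.1 in controls. In cKO cerebella it was at 15.4, 15.8 and 13.2 CPM, against 38.3, 41.3 and 46.2 in controls. The groups did not overlap in either tissue. On the log2 scale Hbs1l changed by -3.62 ± 0.31 (SE) in the embryo and by -1.50 ± 0.24 in the cerebellum, which gave a difference of effects of -2.11 ± 0.39 (adjusted p = 0.0252, edgeR quasi-likelihood test). As a background for groups that do not overlap, the 3 mutants all lay above the 3 controls for 10.3% of tested genes in embryos and 8.89% in cerebella, and all below for 10.6% and 8.88%. Footprints on Pelo, its partner, showed no detectable change (log2 -0.33 in embryos, adjusted p = 0.408, and 0.03 in cerebella, adjusted p = 0.992).

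The comparison asked which genes responded differently in the 2 tissues. With a Benjamini-Hochberg adjusted p of at most 0.05 in edgeR's quasi-likelihood test, 107 genes (0.732% of those tested) differed between embryo and cerebellum in their response, of which 39 (0.267%) were higher on the embryo side and 68 (0.465%) lower. In embryos alone 264 genes passed (1.81%; 143 rose, 0.978%, and 121 fell, 0.827%), and in cerebella 171 (1.17%; 157 rose, 1.07%, and 14 fell, 0.0957%). As a background for the unadjusted counts of lists given below, 2832 of all 14624 tested genes had an unadjusted p below 0.05 in embryos, 1491 in cerebella and 2298 for the difference. Genes past the adjusted p threshold in both tissues numbered 4. They were Hbs1l and Gabarapl2, which fell in both tissues, Ifrd1, which rose in both, and Ftl1, which fell in embryos and rose in cerebella. Across 9376 genes with at least 5 CPM in each tissue, the rank correlation of the 2 sets of log2 changes was -0.05, as a description of genes that share libraries.

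Passing in 1 tissue and not in the other did not by itself make a difference of effects. Of the 264 genes that passed in embryos, 221 had at least 1 CPM in the cerebellum and were set beside their change there, and for 54 of them the difference passed as well, while for 167 it did not. Of the 171 genes that passed in cerebella, 164 reached 1 CPM in embryos, with the difference past the threshold for 40 and not for 124. The 107 genes fell into 54 with the embryo effect alone past the threshold, 37 with the cerebellum effect alone, 3 with both and 13 with neither. The median absolute log2 changes of embryos and cerebella were 1.96 and 0.33 for the first class and 0.27 and 1.23 for the second. Choosing genes by their difference favours effects of opposite sign, so signs are not read within these classes. Of all genes past the threshold in 1 tissue, chosen without the difference, 116 of the 264 in embryos and 97 of the 171 in cerebella had the same sign in the other tissue. Among those with at least 1 CPM in the other tissue the counts were 99 of 221 and 94 of 164. The share over all tested genes is not given here, so these counts are descriptions only.

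**Figure D1:**
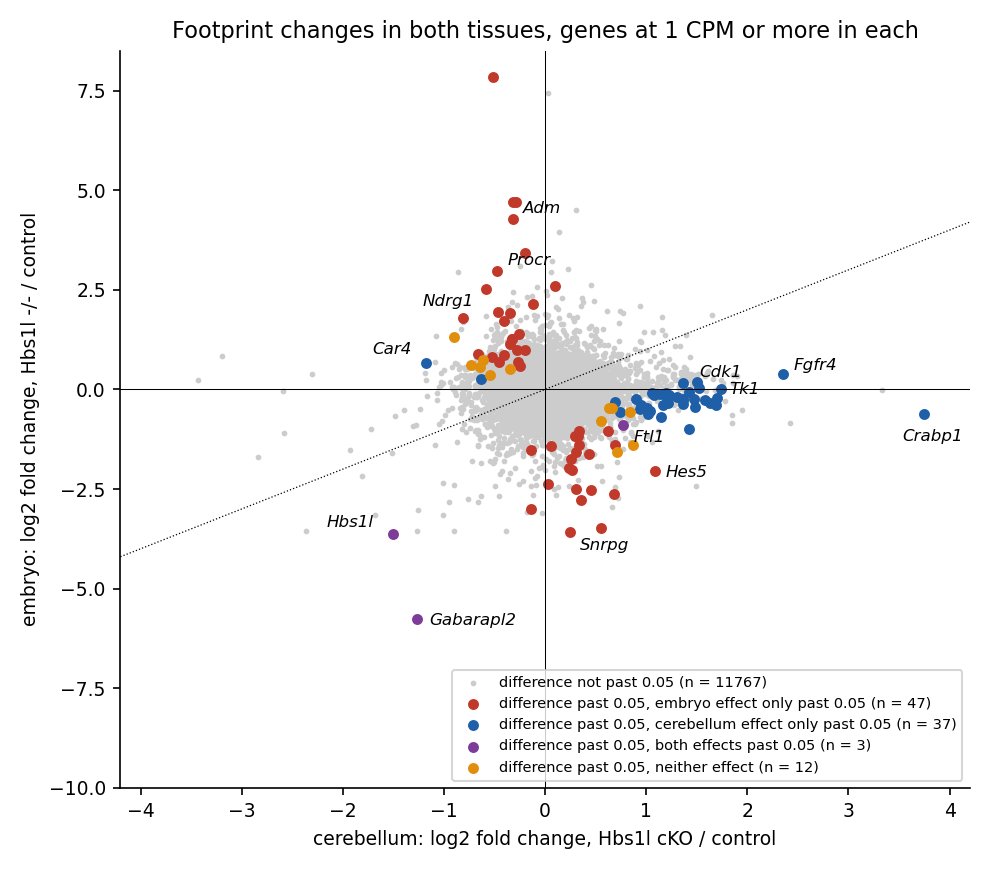
Log2 change from control to mutant in cerebella (x axis) and in embryos (y axis) for genes with at least 1 CPM in both tissues, 1 point a gene, coloured by which effects passed an adjusted p of 0.05 where the difference did; the dotted line marks equal changes. Of the coloured genes, 47 changed past the threshold in embryos alone, 37 in cerebella alone, 12 in neither and 3 in both, of which Hbs1l and Gabarapl2 lie at the lower left and Ftl1 at the lower right.

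How many genes passed depended on individual libraries. Leaving out 1 library at a time gave from 8 genes (without control embryo 2) to 1123 (without mutant embryo 1). Without the 2 cerebella that held Y-linked footprints, 1 of each genotype, 4 genes passed for the difference and 1 for the cerebellum effect. A fit of the cerebellar effect on its own 6 libraries, without the spread estimated from embryos, called 9 genes instead of 171.

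Of the 171 genes past the threshold in cerebella, 27 were on a list of mitosis genes, as were 5 of the 37 with the cerebellum effect and the difference past it. All 36 tested members of the list were higher in cKO cerebella, with a median log2 change of 1.29. In embryos none of the 36 passed (2 had an unadjusted p below 0.05, and DESeq2 called 1), 26 were higher and the median was 0.11, and all 36 differences were negative, 5 of them past the threshold (Cdk1, Plk1, Aurkb, Ccnb2 and Birc5). For comparison, the medians over all 11866 genes at 1 CPM or more in both tissues were -0.01 for the difference, 0.01 for embryos and -0.0025 for cerebella. The summed level of the 36 genes was 1072, 593 and 761 CPM in cKO cerebella and 429, 437 and 386 in controls, without overlap. In embryos the same sum was 7366, 9929 and 8104 CPM in mutants and 7724, 7970 and 7616 in controls, where the groups overlapped. The list was drawn up with earlier results of these data known, so its direction is not independent evidence.

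Cdk1, the kinase that drives cells into mitosis (chromosome 10, minus strand), was at 45.3, 22.3 and 38.8 CPM in cKO cerebella and at 12.7, 13.1 and 14 in controls. In embryos it was at 504, 540 and 595 CPM in mutants and at 599, 524 and 590 in controls. The cerebella separated fully and the embryos overlapped, and the difference of effects was -1.49 ± 0.28 (SE; adjusted p = 0.0272). Espl1 (separase), the protease that cuts the cohesin rings holding sister chromatids together, rose from 3.96, 3.41 and 1.92 CPM to 13.8, 8.01 and 6.22 in cerebella. In mutant embryos it was at 172, 179 and 141 CPM against 209, 229 and 181, an effect that did not pass (log2 -0.33, adjusted p = 0.466), and the difference was -1.97 ± 0.38 (adjusted p = 0.0276). Kif22, a chromosome-bound kinesin, followed the same pattern, with log2 changes of 1.2 in cerebella and -0.10 in embryos (difference -1.29 ± 0.26, adjusted p = 0.0309).

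The promoters of these 3 genes hold, within the 250 bases before the gene start, the letters TTTGAA (the cell cycle homology region, to which the complexes that time G2 and M phase genes bind) and a CCAAT box close by. They are shown because they hold both motifs. Each stretch of 57 or 60 bases, from RefSeq promoters on GRCm38.p6, is written 5′ to 3′ on the gene's strand, with TTTGAA or its reverse complement TTCAAA and CCAAT or its reverse complement ATTGG in capitals.
Espl1 (chr15:102296228-102296287, plus strand): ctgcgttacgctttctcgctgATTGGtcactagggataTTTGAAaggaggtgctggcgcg
Cdk1 (chr10:69352962-69353021, minus strand): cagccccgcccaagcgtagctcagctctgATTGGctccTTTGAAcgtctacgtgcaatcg
Cdk1 (chr10:69352913-69352972, minus strand): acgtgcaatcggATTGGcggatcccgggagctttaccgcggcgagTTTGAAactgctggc
Kif22 (chr7:127042614-127042670, minus strand): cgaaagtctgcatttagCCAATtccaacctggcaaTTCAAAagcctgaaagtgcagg
Kif22 (chr7:127042421-127042480, minus strand): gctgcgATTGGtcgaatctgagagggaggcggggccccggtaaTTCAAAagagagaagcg

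Matches to these letters are descriptions and not measured binding sites. On either strand of the 250 bases, TTTGAA was found in 5 of the 25 promoters available for the 35 genes whose rise in cerebella alone passed together with the difference (20%; Espl1, Cdk1, Kif22, Ccnb2 and Sox11), against 10.2% of 11462 promoters of tested genes and 16% of all 32851 promoters in the table. CCAAT was found in 13 of the 25 (52%), against 36.2% of tested and 33.8% of all promoters. Over the promoters of the whole mitosis list the shares were 8 of 30 (26.7%) for TTTGAA and 23 of 30 (76.7%) for CCAAT. The E2F octamers TTTCCCGC, TTTGGCGC, TTTCGCGC and TTTGCCGC were found in 2 of the 25 (8%) and in 8 of 34 promoters of a DNA replication list (23.5%), against 3.25% of tested and 1.86% of all promoters. The motifs do not overlap one another in the stretches printed, which were chosen from the 5 promoters for holding both.

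Other genes of the mitotic machinery also passed for the difference with a rise in cerebella. In embryos the mutants lay wholly below the controls for Aurkb, Birc5, Plk1 and Spc24 and overlapped them for the other genes named here, and no embryo effect passed. The chromosomal passenger kinase Aurkb was at 13.9, 5.89 and 10.2 CPM in cKO cerebella and at 3.46, 3.89 and 3.51 in controls, with a log2 change of 1.49 there and -0.43 in embryos. Its partner Birc5 (survivin) changed by 1.01 and -0.46, the polo kinase Plk1 by 1.36 and -0.23, and the B-type cyclin Ccnb2 by 1.30 and -0.19. Kif18b, a kinesin that shortens astral microtubules, changed by 1.74 in cerebella and 0.02 in embryos. The kinetochore subunit Spc24 was at 13.8, 12.5 and 13.7 CPM in cKO cerebella against 5.65, 7.01 and 6.70, and at 162, 130 and 116 in mutant embryos against 205, 186 and 208 (difference -1.59 ± 0.21, adjusted p = 0.00615). Foxm1, a transcription factor of G2 and M phase genes, changed by 1.16 and -0.40, and the spindle-associated Psrc1 and Tacc3 by 1.69 and 1.08 in cerebella against -0.40 and -0.13 in embryos.

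Genes of DNA replication and nucleotide supply were the other proliferation group. Of 42 tested, 41 were higher in cKO cerebella and 16 passed, with a median log2 change of 0.62 over the 41 that reached 1 CPM in both tissues. In embryos 19 of the 42 were higher and none passed (8 had an unadjusted p below 0.05, and DESeq2 called 2), and the difference passed for 5, all negative. Tk1 (thymidine kinase) was at 4.97, 3.50 and 4.33 CPM in cKO cerebella and at 1.35, 1.31 and 1.31 in controls, with 52.5, 42.3 and 45.1 in mutant embryos and 61.2, 51.9 and 51.5 in controls. The 3 cKO cerebella all stood above the controls, whereas the embryos overlapped, and the difference was -1.93 ± 0.27 (adjusted p = 0.00786). Rrm2, the regulated subunit of ribonucleotide reductase, changed by 1.06 in cerebella and -0.10 in embryos, Tyms (thymidylate synthase) by 1.21 and -0.23, the replicative helicase subunit Gins2 by 0.95 and -0.39, and Uhrf1, which directs DNA methylation to newly made strands, by 1.37 and -0.27. Tyms has a processed pseudogene copy to which short fragments could be assigned, so that its value is less certain.

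**Figure D2:**
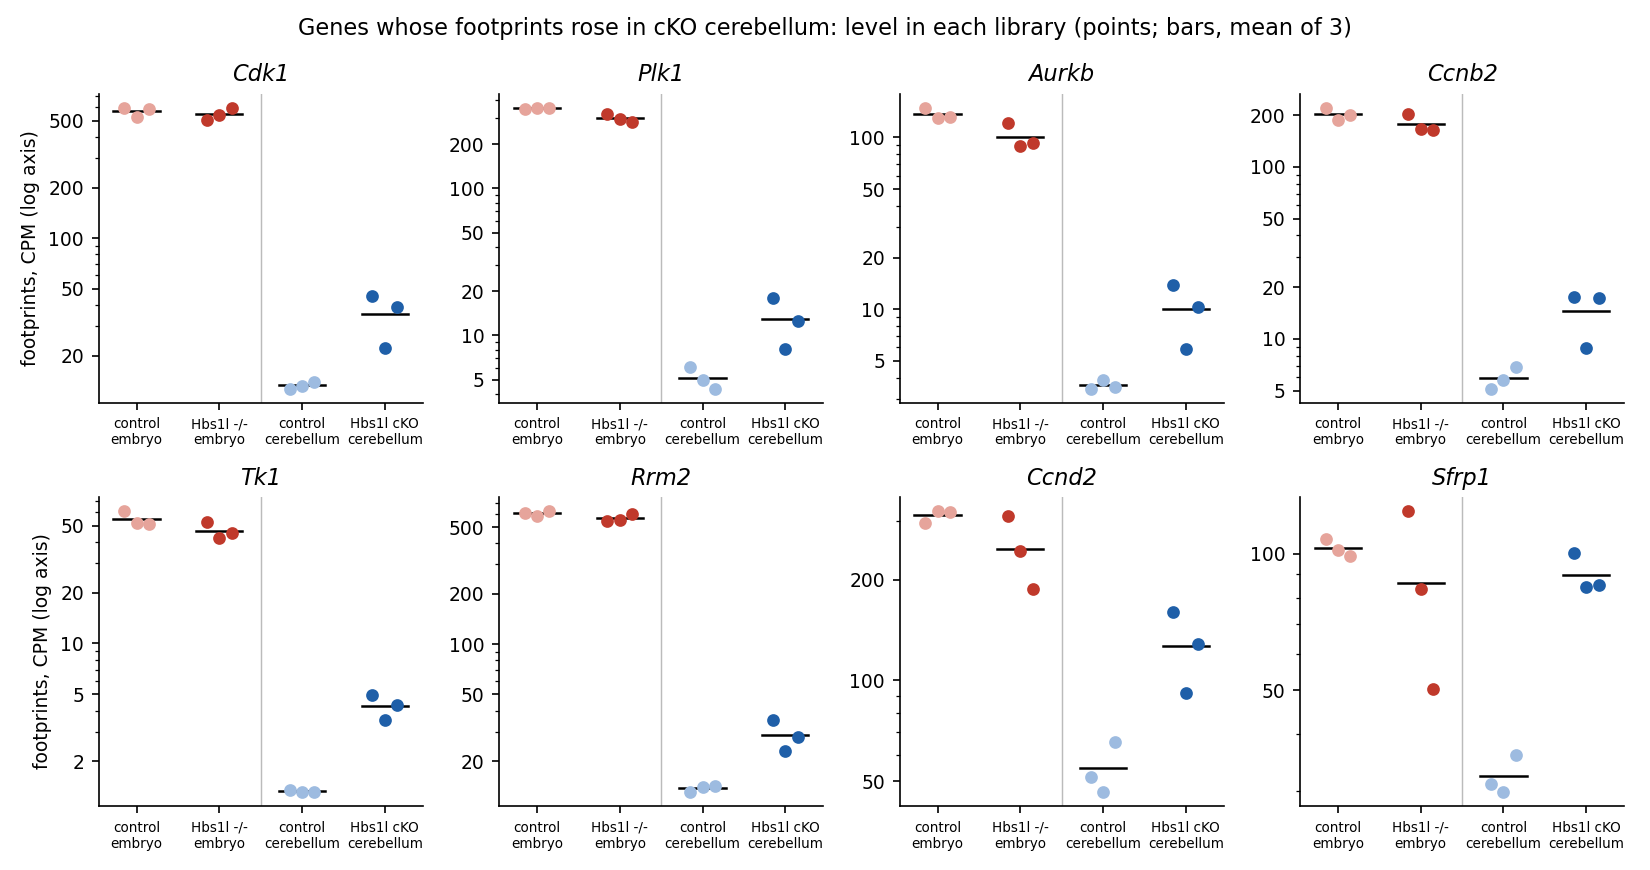
CPM on a log axis in each of the 12 libraries for genes of the cerebellar side, mutants and controls of each tissue side by side, with 1 point a library. The cKO cerebella lie above the control cerebella for each of the 8 genes, while the embryo effect passed for none of them.

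The proliferation genes varied among cKO cerebella. The mitosis sum was highest in replicates 1 and 3, at 1072 and 761 CPM, the libraries that also held Hox, Dbh and Slc6a4 footprints, and 593 in replicate 2. Without cKO replicate 1 the 27 mitosis and 16 replication calls in cerebella became 1 and 2, and without control cerebellum 2 they became 3 and 3. Over all fits without 1 library, the mitosis calls for the difference ran from 0 to 18 and the replication calls from 1 to 12. Leaving out the 2 cerebella with Y-linked footprints, cKO replicate 1 among them, left no mitosis or replication gene past the threshold in cerebella, although all 36 mitosis genes and 40 of the 42 replication genes were still higher, with medians of 0.98 and 0.50. In the fit of cerebella alone no mitosis gene passed and all 36 were higher. After a correction for coding GC content, 16 mitosis and 13 replication genes passed for the difference, compared with 5 and 5 without it. Cell type markers also differed between the groups: 26 of 26 Purkinje cell genes were lower in cKO cerebella, 1 past the threshold (Car8, log2 -0.91; 14 without control cerebellum 3, 5 without cKO cerebellum 2, 8 in DESeq2 and 22 in voom), and summed to 12380, 15194 and 11650 CPM against 27701, 26179 and 16255. Control cerebellum 3, the control nearest the cKO libraries in this sum, had a mitosis sum of 386 CPM, the lowest of the 6 cerebella. Genes of mature granule neurons summed to 7404, 10418 and 7442 CPM in cKO and to 11148, 11290 and 14243 in control cerebella. Cerebellar interneuron genes summed to 2610, 2603 and 2489 CPM against 3968, 3742 and 2713. Oligodendrocyte and myelin genes summed to 10615, 11965 and 13301 against 14211, 15858 and 13692. Synaptic and neuronal genes summed to 14129, 14929 and 13925 against 18393, 18519 and 17465. The groups did not overlap in any of these lists. Granule cell progenitor genes went the other way, at 2722, 2846 and 2586 against 2038, 2087 and 2522, and astrocyte genes overlapped. The part of these shifts in the changes of the mitotic genes was not tested.

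Genes of the granule cell progenitor, the dividing cell of the outer cerebellum, followed in part. Of 20 tested, 5 passed as higher in cKO cerebella (1 without cKO cerebellum 1 or control cerebellum 2) and 4 passed for the difference, all with negative values: Sfrp1, Ccnd2, Zic1 and Pax6 (none of the list without mutant embryo 2, any 1 of the control embryos or control cerebellum 2). Sfrp1 and Ccnd2 did so through a rise in cerebella. Sfrp1, a secreted Wnt antagonist, was at 100, 84.3 and 85.1 CPM in cKO cerebella against 31.2, 29.9 and 36.1 (log2 1.47), and changed by -0.24 in embryos. Ccnd2, the D-type cyclin of granule cell progenitors, was at 160, 92.0 and 128 CPM against 51.6, 46.4 and 65.7 (log2 1.22) and changed by -0.33 in embryos. The cKO and control cerebella did not overlap for either gene. Zic1 and Pax6, transcription factors of the same cells, passed instead through a fall in embryos (log2 -1.75 and -1.05), with changes of 0.26 and 0.33 in cerebella that did not pass.

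Further genes of the cerebellar side had no place in these lists. Fgfr4, a fibroblast growth factor receptor, was at 4.02, 5.24 and 5.21 CPM in cKO cerebella and at 0.928, 0.876 and 0.984 in controls, and its rise (log2 2.36 ± 0.26 SE, adjusted p = 0.00188) had the smallest adjusted p of the cerebellar effect. In embryos it changed by 0.38. Hsd11b2, which inactivates glucocorticoid hormone, was at 11.5, 12 and 11.3 CPM against 4.05, 3.31 and 4.26 in cerebella and changed by -0.26 in embryos (difference -1.84 ± 0.28, adjusted p = 0.0111). Both genes separated the cerebella with little spread among the 3 cKO libraries. The transcription factor Sox11 changed by 1.37 in cerebella and -0.38 in embryos, the corepressor Rcor2 by 0.93 and -0.49, and Tox3 by 1.43 and -0.98. Tox3 was at 22.3, 11.5 and 22.3 CPM in cKO cerebella against 6.24, 9.10 and 5.58. Its higher values were in cKO replicates 1 and 3, the libraries that also held Hox, Dbh and Slc6a4 footprints.

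Crabp1, which binds retinoic acid, had the most negative difference of this class (-4.36 ± 0.72, adjusted p = 0.0139). It was at 3.63, 0.828 and 7.06 CPM in cKO cerebella and at 0.253, 0.535 and 0.0937 in controls, from 76, 9 and 160 fragments against 3, 11 and 2. In embryos it was at 338, 239 and 351 CPM in mutants and 494, 473 and 456 in controls. Its rise in cerebella rested on cKO replicates 1 and 3, the libraries that also held Hox, Dbh and Slc6a4 footprints, and whether its source was the cerebellum was not tested.

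Only 2 of the 37 genes of the cerebellar class fell there. Car4, a membrane-anchored carbonic anhydrase of capillaries, was at 58.7, 102 and 101 CPM in cKO cerebella against 152, 152 and 288, and at 844, 1365 and 1229 in mutant embryos against 776, 662 and 720. The groups did not overlap in either tissue (difference 1.85 ± 0.37, adjusted p = 0.0351), and the embryo effect alone did not pass (log2 0.67, adjusted p = 0.183). Car4 also stood on a list of visceral endoderm genes, an extraembryonic layer, as the only one of 27 to pass for the difference. Eif4a2, an RNA helicase of translation initiation that is abundant in neurons, was at 344, 348 and 337 CPM in cKO cerebella against 525, 574 and 498 (log2 -0.63 ± 0.14, adjusted p = 0.0321), and changed by 0.27 in embryos.

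On the embryo side, 31 genes rose in mutant embryos with the difference past the threshold. Among genes with at least 5 CPM in each tissue the largest differences belonged to Lgals9, Bhlhe40, Trpv2, Ndrg1, Ier3, Sema7a and Thbd. Adm and Procr, named here after their values were seen because their cerebellar levels lie under that minimum, had the smallest adjusted p of all. Adm, which encodes the vasodilator peptide adrenomedullin (chromosome 7, plus strand), was at 230, 137 and 337 CPM in mutant embryos and at 8.85, 15.7 and 10.7 in controls. In cerebella it was at 2.92, 2.94 and 3.53 CPM in cKO and 2.78, 4.92 and 3.89 in control libraries. All 3 mutant pools were far above the controls, whereas the cerebella overlapped, and the difference was 4.60 ± 0.45 (SE; adjusted p = 0.000453).

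Procr, the endothelial protein C receptor, was at 62.7, 33.1 and 60.8 CPM in mutant embryos against 6.54, 5.90 and 7.56, and at 2.92, 2.58 and 2.12 in cKO cerebella against 4.64, 2.97 and 3.14 (difference 3.45 ± 0.41, adjusted p = 0.0027). It passed under every one of the 23 alternatives run. Thbd (thrombomodulin), which acts with protein C on the vessel wall, was at 40.5, 24 and 39.2 CPM against 8.85, 8.36 and 14.4 in embryos and changed by -0.40 in cerebella (difference 2.13 ± 0.33, adjusted p = 0.0111). Both genes separated mutant from control embryos completely.

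Pecam1, an adhesion molecule of endothelial cells, was at 72.5, 68.9 and 87.4 CPM in mutant embryos against 34.6, 27.0 and 33.3, with a log2 change of -0.33 in cerebella (difference 1.60 ± 0.24, adjusted p = 0.0111). Flt1, a receptor for vascular endothelial growth factor that trophoblast also makes, changed by 0.89 in embryos and -0.67 in cerebella. These were the 2 of 18 endothelial genes to pass for the difference (1 without any 1 of the control embryos), and the list as a whole did not rise in embryos. There 8 of 18 were higher, the median was -0.17 over the 17 at 1 CPM or more in both tissues, and the summed level was 1136, 891 and 1065 CPM in mutants against 953, 894 and 944. In cKO cerebella 15 of the 18 were lower and 2 higher, none past the threshold (5 at an unadjusted p below 0.05), with a median of -0.31 over the same 17. The sums were 545, 562 and 627 CPM against 832, 833 and 578, where control cerebellum 3 was the lowest of the controls. Epas1, the hypoxia-inducible factor subunit of endothelium and placenta, changed by 1.14 in embryos and -0.34 in cerebella (difference 1.48 ± 0.32, adjusted p = 0.0476).

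Ndrg1, a gene known to respond to low oxygen and differentiation, was at 54.3, 27.2 and 51.0 CPM in mutant embryos against 10.4, 9.83 and 14.4, and changed by -0.47 in cerebella (difference 2.41 ± 0.37, adjusted p = 0.0111). Bhlhe40, a transcriptional repressor of the circadian and stress systems, was at 12.7, 3.95 and 18.5 CPM against 2.69, 2.21 and 1.03 (difference 3.11 ± 0.58). Lgals9 (galectin-9) was at 35.6, 11.9 and 109 CPM against 6.54, 3.44 and 4.81 (difference 3.62 ± 0.78). In each of the 3 genes mutant embryo 2 was the lowest of the mutants and still above every control. Sema7a, a membrane-anchored semaphorin, changed by 2.14 in embryos and -0.12 in cerebella, the calcium channel Trpv2 by 2.60 and 0.10, the secreted protease Htra1 by 1.27 and -0.33, and the early response gene Ier3 by 1.91 and -0.35.

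**Figure D3:**
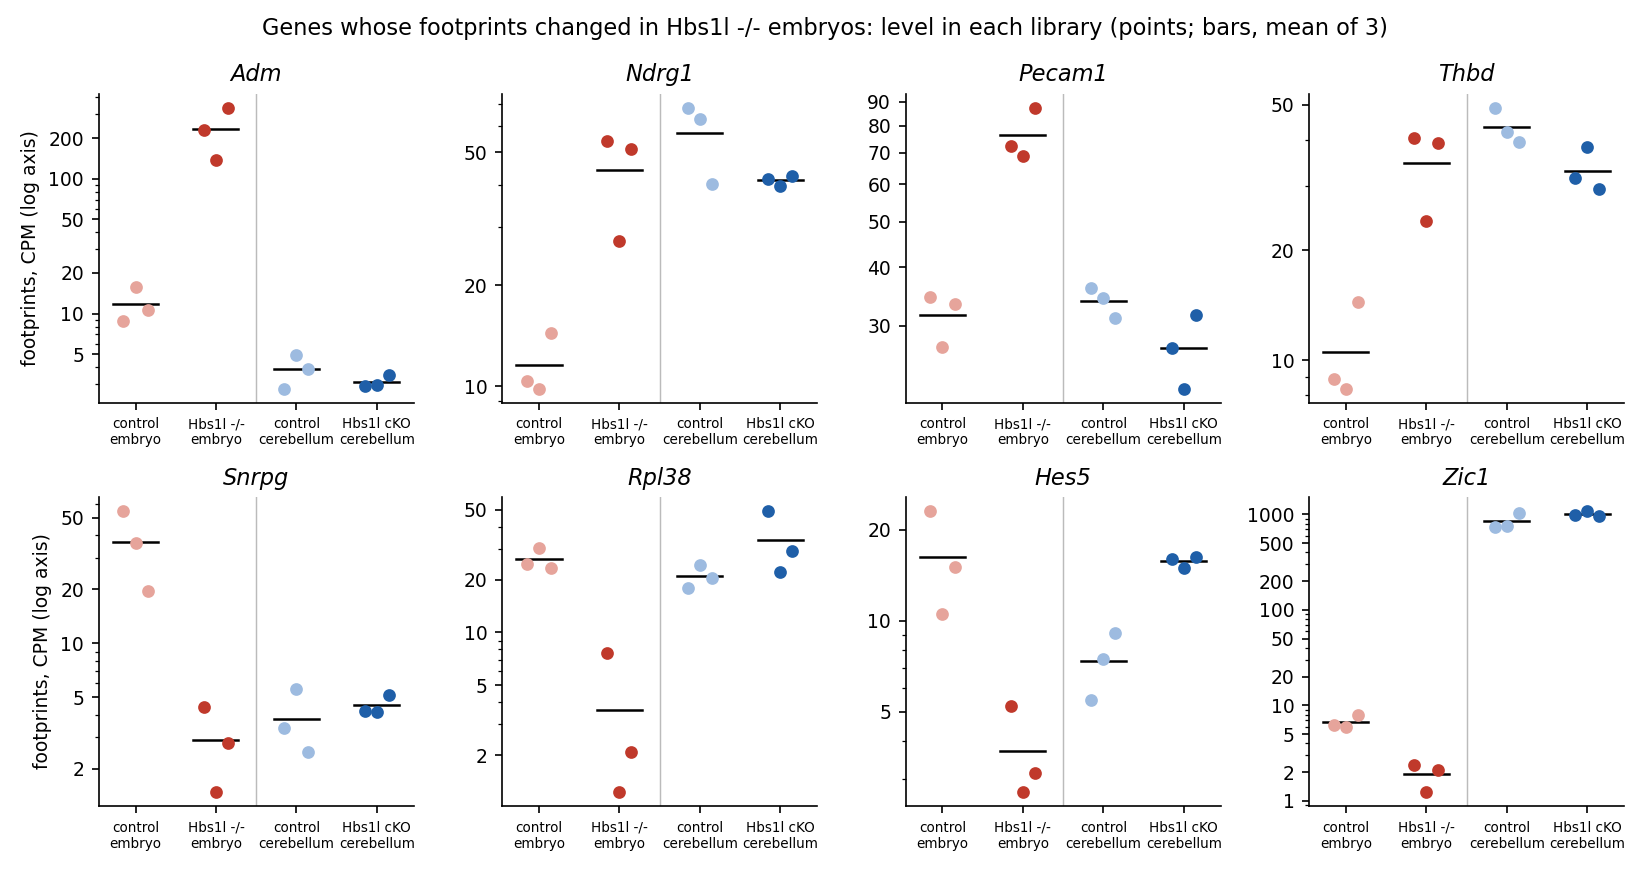
CPM on a log axis in each of the 12 libraries for Adm, Ndrg1, Pecam1, Thbd, Snrpg, Rpl38, Hes5 and Zic1, mutants and controls of each tissue side by side, with 1 point a library. Mutant embryos lie above control embryos for the first 4 genes and below them for the other 4, while among these 8 genes the cerebella overlap except for Hes5, higher in cKO, and Thbd, lower in cKO, neither past the threshold there.

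Trophoblast genes moved with these rises. The 14 tested genes of the placental prolactin family summed to 661, 434 and 1558 CPM in mutant embryos and to 62.7, 155 and 102 in controls, and 10 of the 14 passed as higher in embryos (4 without control embryo 1 or 2, and 6 without control embryo 3, all 14 higher each time). In cerebella the whole family summed to under 2.5 CPM in every library. The difference passed for Prl2c1, Prl2c2 and Prl2c3, similar genes on chromosome 13 (Prl2c3 at 12790816 to 12800079, Prl2c2 at 12996125 to 13005383 and Prl2c1 at 27849342 to 27857788) between which short fragments can be split only in part. Prl2c3 was counted at 325, 116 and 179 fragments in mutant embryos, 3, 9 and 6 in controls, and 0, 5, 10, 6, 14 and 15 in the 6 cerebella. Mutant and control embryos were far apart, and the cerebellar counts were too low to measure a change. A further list of 15 trophoblast genes had 15 of 15 higher in mutant embryos, 3 of them past the threshold (none without any 1 of the control embryos, and 10 without mutant embryo 1), and none past it for the difference. Visceral endoderm genes were higher in mutant embryos for 22 of 27, none past the threshold (10 at an unadjusted p below 0.05, and DESeq2 called 1), with sums of 19157, 36963 and 27736 CPM against 22237, 22996 and 25424, which overlapped. Genes of the decidua, the maternal lining, summed to 1303, 1137 and 1353 CPM against 905, 1008 and 887 without overlap. Of the 15, 8 were higher and none passed (3 at an unadjusted p below 0.05, and DESeq2 called 1). The median was -0.02 over the 8 at 1 CPM or more in both tissues. The embryos were not sexed, and how much extraembryonic tissue each pool held is not given in the sources used here. The part of these shifts in the rises of Adm, Procr, Flt1 and Lgals9, and in the embryo values of Car4, was not tested.

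Of the genes that fell, 23 did so in embryos with the difference past the threshold and no cerebellar call. Hes5, a target of Notch signalling that keeps neural progenitors undifferentiated, was at 5.25, 2.72 and 3.15 CPM in mutant embryos against 23.1, 10.6 and 15.1. In cKO cerebella it was at 16.1, 15 and 16.3 CPM against 5.48, 7.5 and 9.14, an effect that did not pass (log2 1.09, adjusted p = 0.0859). The groups did not overlap in either tissue, and the difference was -3.13 ± 0.45 (adjusted p = 0.00786). Pax6 was at 9.11, 8.65 and 4.89 CPM in mutant embryos against 14.2, 17.2 and 17.2, and at 133, 132 and 129 in cKO cerebella against 92.9, 103 and 116 (difference -1.38 ± 0.26, adjusted p = 0.0272).

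These were the 2 genes of a neural plate and tube list of 23 to pass, and 19 of the 23 had negative differences, with a median of -0.80 over the 15 at 1 CPM or more in both tissues. The list summed to 1825, 1466 and 1222 CPM in mutant embryos against 1688, 1722 and 1640 in controls, so the groups overlapped. In cKO cerebella 16 of the 23 were higher and 6 lower, none past the threshold (7 at an unadjusted p below 0.05). Their median over the same 15 was 0.33, and the sums were 1978, 1657 and 1945 CPM against 1222, 1287 and 1575, without overlap. Corrected for coding GC content, the list's median difference was -0.52 and its embryo median went from -0.53 to -0.19, with 11 instead of 7 of the 23 higher in embryos and the same count of 2 past the threshold. The transcription factors Zic1, Olig2 and Uncx stood on 3 other lists. Zic1 was 1 of 4 granule cell progenitor genes, of 20, to pass with a negative difference. Olig2 was the only one of 22 oligodendrocyte and myelin genes to pass, and 14 of the 22 had positive differences. Uncx was the only one of 21 paraxial mesoderm genes to pass, and 16 of the 21 had negative differences. Zic1 was at 2.35, 1.24 and 2.1 CPM in mutant embryos and 6.16, 5.90 and 7.90 in controls, and at 954 to 1086 CPM in cKO cerebella against 736 to 1045. Olig2 fell by 1.97 on the log2 scale in embryos, from levels of at most 6.93 CPM. Uncx was counted at 2, 1 and 0 fragments in mutant embryos and at 6, 16 and 2 in controls, so the size of its fall is poorly determined. Levels that low rested on few fragments in the embryo libraries, whereas the cerebellar levels of all 3 genes were above 38 CPM.

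Snrpg, Rpl38 and Hmgb3 were also among the most negative differences. Snrpg, a subunit of the Sm ring around spliceosomal RNAs, was at 4.42, 1.48 and 2.80 CPM in mutant embryos against 54.6, 36.1 and 19.6, and at 4.21, 4.14 and 5.16 in cKO cerebella against 3.37, 5.55 and 2.48. It was the only one of 38 snRNP and spliceosome genes to pass, with 8 passing without mutant embryo 1 and none without control embryo 2 (difference -3.81 ± 0.59, adjusted p = 0.0111). Rpl38, a protein of the large ribosomal subunit, was at 7.6, 1.24 and 2.1 CPM against 24.6, 30.2 and 23.4 in embryos (difference -3.32 ± 0.57, adjusted p = 0.0178). The chromatin protein Hmgb3 was at 6.08, 2.72 and 4.89 CPM against 22.3, 20.9 and 14.1 (difference -2.30 ± 0.46, adjusted p = 0.0309). All 3 separated the embryos and overlapped in cerebella. Rpl38 and Hmgb3 have processed pseudogenes, and fragments that fit a gene and its copy equally well may have been dropped or moved by the counting.

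Mybpc3, a myosin-binding protein of the sarcomere, was at 35.1, 29.4 and 25.9 CPM in mutant embryos against 89.3, 96.6 and 74.6. In cerebella it was at 68.9, 90.6 and 56.3 CPM in cKO and 73.1, 72.0 and 92.7 in controls, where the groups overlapped (difference -1.37 ± 0.27, adjusted p = 0.0306). It was the only one of 40 heart genes to pass for the difference, while 11 of the 40 fell in embryos and 1 rose (Nppb, a natriuretic peptide, log2 1.99). The 11 became 1 without control embryo 1, 2 without control embryo 2, control embryo 3 or mutant embryo 2, and 5 without mutant embryo 3. The heart list summed to 3238, 2688 and 3115 CPM in mutant embryos against 4313, 4820 and 4442. In cKO cerebella 31 were lower and 7 higher, none past the threshold (10 at an unadjusted p below 0.05), with sums of 2036, 2296 and 1569 CPM against 3619, 3147 and 2013. The median there was -0.44 over the 18 heart genes at 1 CPM or more in both tissues. For 22 of the 40, under 1 CPM in 1 tissue or the other, the difference was tested on few fragments.

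The falling genes were rich in G and C. Their median coding GC content was 61.7% for the 23 genes of this class, 56.0% for the 35 that rose in cerebella and 53.4% over all tested genes. Across 9365 genes with at least 5 CPM in both tissues, the log2 change in embryos followed GC content with a rank correlation of -0.49, against 0.02 in cerebella and -0.41 for the difference. The median change in embryos went from 0.24 in the lowest quintile of genes by GC content to -0.27 in the highest. For single libraries, levels were taken relative to the mean of the tissue's controls. In mutant embryos 2 and 3 the highest quintile differed from the lowest by -0.84 and -0.75 on the log2 scale. The gap was 0.02 in mutant embryo 1 and between -0.02 and 0.04 in the 6 controls. In the 3 cKO cerebella it was -0.15, 0.18 and 0.03. Because the controls make up the mean, their own gaps are narrowed by construction. With each library's GC gradient removed, 17 of the 23 falling genes, 29 of the 31 rising genes and 34 of the 35 cerebellar genes still passed for the difference.

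**Figure D4:**
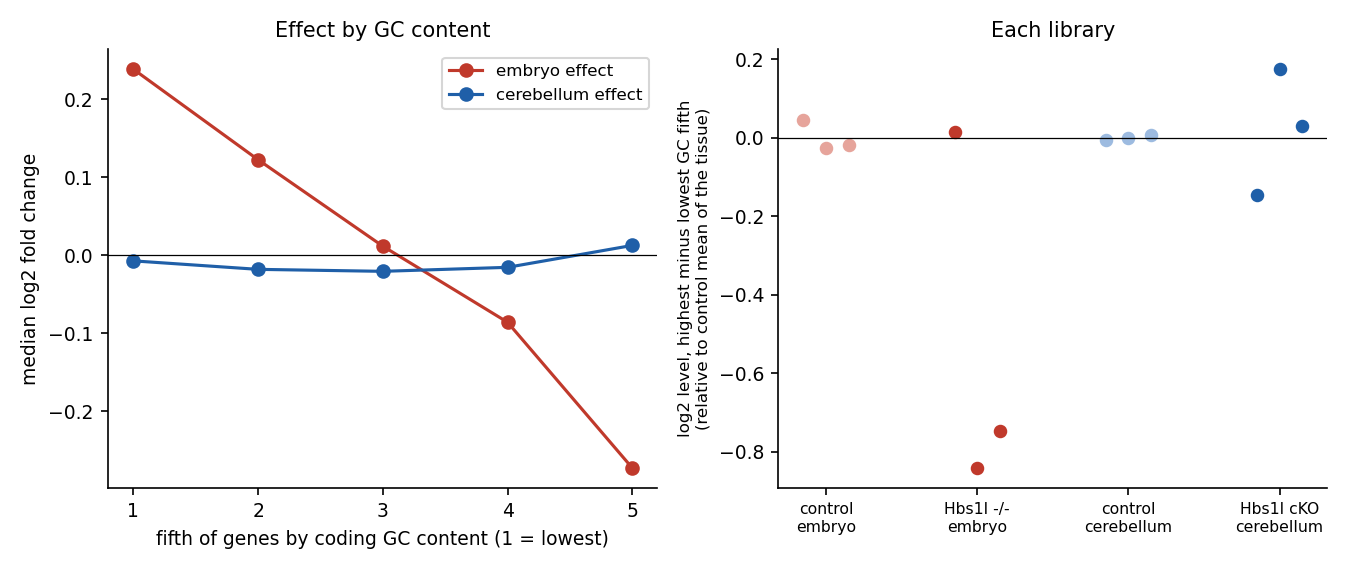
Median log2 change from control to mutant in each quintile of genes by coding GC content (left, embryos and cerebella). The right panel gives the gap between the highest and lowest quintile in each library, relative to the mean of its tissue's controls. Only mutant embryos 2 and 3 show a steep gradient.

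Both effects and their difference passed for 3 genes, Hbs1l among them. Gabarapl2, a ubiquitin-like protein of autophagosomes, was counted at 1, 0 and 0 fragments in mutant embryos and at 15, 19 and 8 in controls. In cerebella it was at 14.2, 18.7 and 16.9 CPM in cKO and 37.3, 54.7 and 27.6 in controls (log2 -1.27 ± 0.25, adjusted p = 0.0204). It thus fell in both tissues without overlap, and with 1 fragment left among 3 mutant embryo libraries the size of its fall there is poorly determined. Ftl1, the light chain of the iron store ferritin, was at 64.4, 53.9 and 53.5 CPM in mutant embryos against 122, 93.2 and 105 (log2 -0.89), and at 20.3, 18.2 and 21.7 in cKO cerebella against 11, 11.2 and 13.1 (log2 0.77). It was the only gene with both effects past the threshold in opposite directions (difference -1.66 ± 0.22, adjusted p = 0.00615). Ftl1 also has processed pseudogene copies.

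Ifrd1, a regulator of differentiation whose mRNA is known to be limited by an upstream reading frame, rose in both tissues. It was at 74.7, 114 and 116 CPM in mutant embryos against 36.5, 36.6 and 38.5, and at 43.7, 38.6 and 34.2 in cKO cerebella against 15.6, 18.2 and 25.0. The log2 changes of 1.44 and 0.98 did not differ detectably (difference 0.46, adjusted p = 0.447), and mutants and controls were apart in each tissue.

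The 13 genes that passed for the difference with neither effect past the threshold had median absolute changes of 0.60 in embryos and 0.66 in cerebella, with opposite signs, as their selection favours. Cdh24, a cadherin and the only one of them among the 12 most negative differences at 5 CPM or more in both tissues, was at 4, 1.98 and 4.2 CPM in mutant embryos against 6.16, 11.6 and 8.59, and at 19.1, 9.11 and 18.2 in cKO cerebella against 7.84, 9.35 and 8.25. The embryos separated and the cerebella overlapped, with cKO replicate 2 within the controls and the higher values in cKO replicates 1 and 3, the libraries with Hox, Dbh and Slc6a4 footprints (difference -2.26 ± 0.49, adjusted p = 0.0472).

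Some embryo responses could be compared only on few cerebellar fragments. Of the 264 genes that passed in embryos, 43 were under 1 CPM in the cerebellum, and the difference passed for 3 of these, the Prl2c genes. The 43 included cardiac and embryonic globin genes that fell, such as Hbb-y (log2 -3.26), Myl2 (-1.57) and Myh6 (-0.87), and trophoblast genes that rose, such as Prl3d1 (4.58), Plac1 (2.37) and Plet1 (4.35). In the cerebellar direction, 7 genes passed in cerebella and were under 1 CPM in embryos. Barhl1, a transcription factor of granule cell progenitors, rose to 81.8, 77.5 and 82.0 CPM from 32.0, 40.0 and 46.6 and was at 0 in all 6 embryo libraries. Insm1, a factor of neurons about to leave the cell cycle, rose to 133, 107 and 130 CPM from 39.1, 50.6 and 48.5, with at most 1.40 CPM in any embryo library. Both separated cKO from control cerebella. The remaining 5 were Dbh, Myod1, Car9, Crtam and Prrt2.

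The reverse also occurred at low counts. Car11, Cabp7 and Ano3 were at 0 in all 3 control embryos and at 13, 3 and 4, at 7, 4 and 1, and at 9, 4 and 1 fragments in the mutant embryos. In the 6 cerebella they were counted at 394 to 934, 402 to 1018 and 126 to 410 fragments. Agap2 was counted at 1, 0 and 0 fragments in mutant embryos and at 3, 4 and 6 in controls, and Pou4f1 at 0, 0 and 0 against 7, 4 and 4. The differences of these 5 genes passed on a handful of embryo fragments, so their fitted values are not sizes of an effect.

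**Figure D5:**
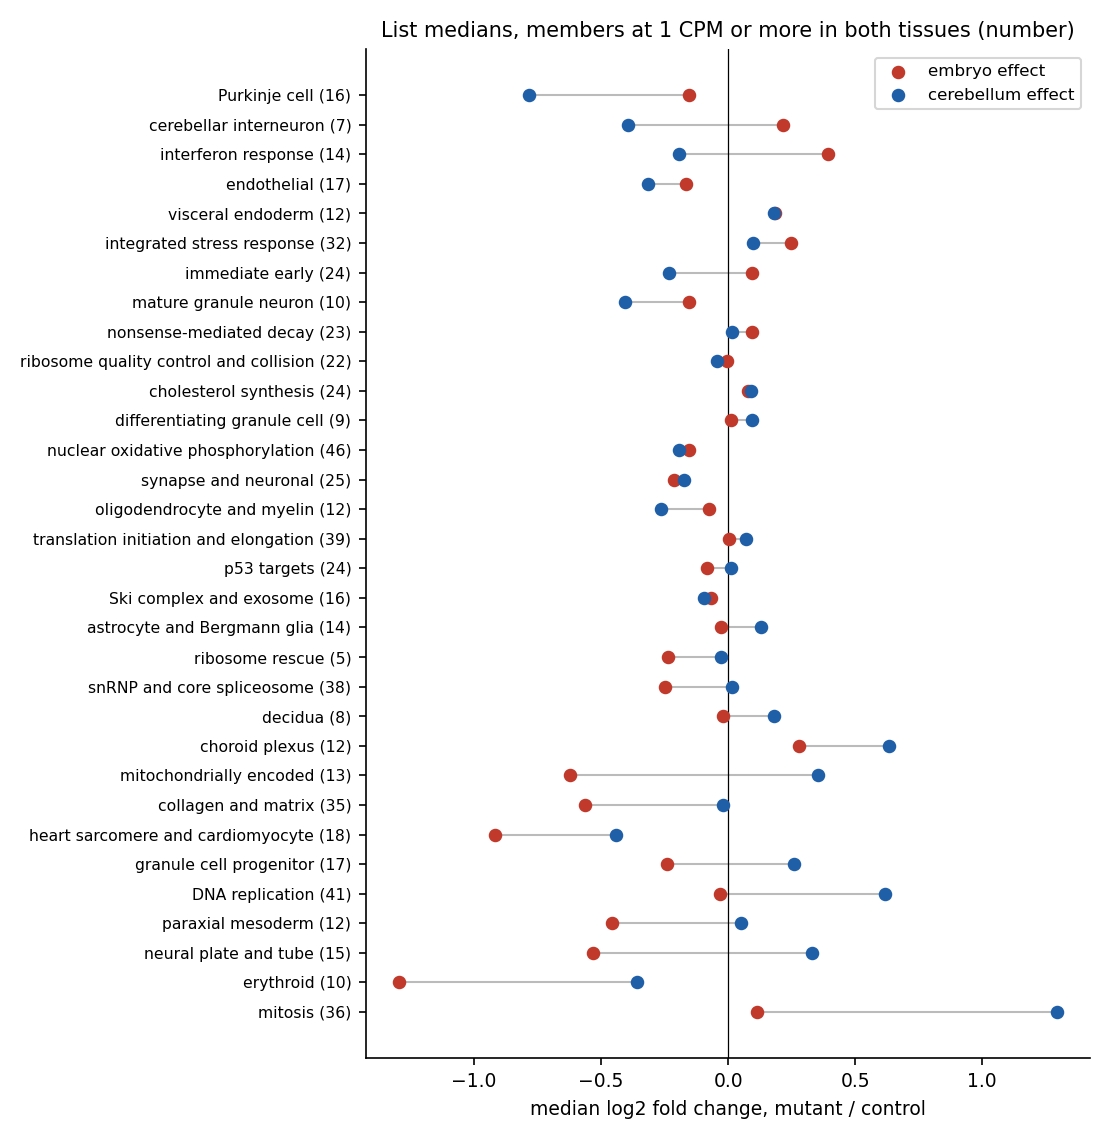
Median log2 change from control to mutant in embryos and in cerebella for each gene list, over members with at least 1 CPM in both tissues (their number in parentheses). Mitosis lies at 1.29 in cerebella and 0.11 in embryos, and DNA replication at 0.62 and -0.03. Purkinje cell genes lie at -0.78 in cerebella and -0.16 in embryos, erythroid genes at -0.36 and -1.30, and heart genes at -0.44 and -0.92.

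The remaining lists held few differences. In embryos 19 of 19 erythroid genes were lower, 5 of them past the threshold, and none passed for the difference in edgeR (DESeq2 called 2). The 5 became 1 without control embryo 2 or 3 and 2 without control embryo 1 or mutant embryo 3, with 19 of 19 lower each time. In cKO cerebella 15 were lower and 3 higher, none past the threshold (2 at an unadjusted p below 0.05). Of 48 nuclear genes of oxidative phosphorylation, 48 were lower in cKO cerebella and 37 in mutant embryos, and none passed in any of the 3 comparisons (edgeR; 3 in cerebella, 13 in embryos and 4 for the difference had an unadjusted p below 0.05, and DESeq2 called 1, 2 and 1). Of the 13 mitochondrially encoded genes, 6 were higher and 7 lower in mutant embryos (median -0.62), with sums of 4707, 5789 and 11706 CPM against 5359, 5981 and 6207, so that mutant embryo 3 stood apart and the groups overlapped. In cerebella 11 were higher (median 0.35), with none past the threshold in edgeR (6 in embryos, 0 in cerebella and 5 for the difference at an unadjusted p below 0.05). DESeq2 called 4 of them lower in embryos and 1 for the difference, voom 4 higher in cerebella, and edgeR on the 6 embryo libraries 4 lower. None of 22 genes of ribosome quality control and collision sensing, 16 of the Ski complex and exosome, and 23 of nonsense-mediated decay passed in either tissue or for the difference. At an unadjusted p below 0.05 the counts in embryos, in cerebella and for the difference were 2, 1 and 3 for quality control, 5, 1 and 2 for Ski and exosome, and 6, 1 and 2 for decay. Over all 14624 tested genes the same counts were 2832, 1491 and 2298. DESeq2 called 0 of the first list, 2 of the second and 3 of the third in embryos. Of 35 genes of the integrated stress response, 3 passed as higher in embryos, none in cerebella and none for the difference in edgeR (5, 2 and 2 in DESeq2). The 3 became 0 without mutant embryo 2 or any 1 of the control embryos and 6 without mutant embryo 1. The medians over the 32 at 1 CPM or more in both tissues were 0.25 in embryos, 0.10 in cerebella and 0.27 for the difference.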

How the data were processed

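Ribosome footprints of 12 libraries were analysed from the count table that the authors deposited, which holds raw counts of footprint reads per gene. Per the study's methods, adaptors were clipped, ribosomal and transfer RNA reads were removed with Bowtie2 2.2.3, the rest were aligned to mm10 with HISAT2 2.1.0, and featureCounts counted footprints overlapping coding sequence. Multi-mapping and strand settings are not given in the sources used here. As in the study, 100 genes with histone prefixes were left out.

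Genes with enough counts (filterByExpr) were scaled by TMM and fitted over the 4 groups with edgeR 4.0.16 (R 4.3.3), whose quasi-likelihood test gave the difference and each tissue's effect; p-values were adjusted by Benjamini-Hochberg over 14624 genes with a threshold of 0.05. Standard errors are the log2 change divided by the square root of F. CPM are counts per 1000000 fragments after TMM. The fit was also run on simulated counts, and no outcome of that run is given here. Each replicate was a separate pool of embryos or a separate mouse. Library totals limit the precision of low counts, and standard errors cover counting error and the spread among these libraries only.

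Named genes were Hbs1l; the 12 most positive and 12 most negative differences at 5 CPM in both tissues; genes past the threshold in cerebella or in both tissues; the 5 largest each way under 1 CPM in 1 tissue; and list members that passed. The genes, lists and rules were chosen with earlier results of these data known. Differences are described by counts and medians, with no set test. Positions and coding GC come from Gencode M21 on GRCm38 (22397 of 22438 genes matched) and promoters from RefSeq (11462 of 14620 symbols matched). Alternatives were DESeq2 1.42.0, limma 3.58.1 (voom), other scalings and filters, thinning, a replicate block and leaving out libraries; a GC correction and leaving out 2 cerebella were added after seeing the data. RNA-seq libraries and protein sequences were not used here.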

Additional observations from a re-analysis of the deposited data

Results flagged for a closer look

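The effect of losing Hbs1l differed between embryos and cerebella, by the test of the difference itself (edgeR quasi-likelihood interaction), for 107 genes, and the values below are log2 differences of effects, embryo minus cerebellum, for those named. No explanation was tested for any of them.

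Where both tissues changed, Gabarapl2 had a fitted value of -4.48 that rests on 1 fragment in the mutant embryos, Hbs1l was at -2.11 and Ftl1 at -1.66. Where the cerebellar effect alone passed, mitotic genes lay between Psrc1 at -2.09 and Pbk and Tacc3 at -1.21: Espl1 -1.97, Aurkb -1.92, Pimreg -1.84, Kif18b -1.72, Knstrn -1.63, Plk1 -1.59, Spc24 -1.59, Foxm1 -1.56, Cdk1 -1.49, Ccnb2 -1.49, Birc5 -1.47, Fbxo5 -1.32 and Kif22 -1.29. Genes of DNA synthesis and repair were Tk1 at -1.93, Uhrf1 -1.64, Chaf1b -1.48, Tyms -1.44, Fanca -1.36, Gins2 -1.34 and Rrm2 -1.16. The others of this class were Crabp1 at -4.36, Tox3 -2.41, Fgfr4 -1.97, Hsd11b2 -1.84, Sox11 -1.75, Sfrp1 -1.71, Ccnd2 -1.55, Rcor2 -1.42, Nt5dc2 -1.30, Mex3a -1.25, Rcn1 -1.14 and Tmem131l -1, with Eif4a2 at 0.90 and Car4 at 1.85 in the other direction.

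Where the embryo effect alone passed, the genes that fell were Snrpg at -3.81, Rpl38 -3.32, Hes5 -3.13, Hmgb3 -2.30, Olig2 -2.21, 2700081O15Rik -2.09, Zic1 -2.01, Wbp1 -1.87, Pax6 -1.38 and Mybpc3 -1.37. The genes that rose were Epas1 at 1.48, Flt1 1.55, Htra1 1.60, Pecam1 1.60, Thbd 2.13, Sema7a 2.26, Ier3 2.26, Ndrg1 2.41, Trpv2 2.49, Bhlhe40 3.11, Procr 3.45, Lgals9 3.62 and Adm 4.60. The values of Olig2, Zic1, Wbp1, Ier3, Trpv2 and Bhlhe40, and of Crabp1 above, rest on few fragments in 1 group. Those of Snrpg, Rpl38 and Hes5 rest on few fragments in mutant embryos 2 and 3. The fitted values of Agap2 (-4.17), Uncx (-4.03), Prl2c1 (5.43), Prl2c3 (5.77), Cabp7 (6.75), Car11 (7), Ano3 (7.41) and Prl2c2 (7.63) rest on groups at or near 0 fragments and depend on the prior count, so they are not sizes of an effect.

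With neither effect past the threshold, Cdh24 was at -2.26, and Pou4f1 had a fitted value of -8.76 that likewise rests on 0 fragments in the mutant embryos.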

How the results depend on the processing

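No alternative turned the sign of any of the 107 differences, which were chosen on these libraries, so this says little of stability. Each was called in 5 to 23 alternatives (median 13) of the 23, of which 8 genes were tested in fewer, and 74 in at least 50% of those that tested them. The embryo libraries, the smaller ones, limit the depth of the difference. Beside 39 genes higher and 68 lower on the embryo side, with 54 in the embryo class and 37 in the cerebellum class, DESeq2 gave 250 and 335 (classes 296 and 158), limma voom 477 and 629 (354 and 495), no filter 68 higher, histone genes kept 62 higher (66 in the cerebellum class), and genes at 1 CPM in both tissues 103 lower (57 in the cerebellum class). Libraries thinned to the smallest total gave 16 and 32 (29 and 14), with 39 of the 107 kept. The GC correction, added later, gave 129 lower (86 in the cerebellum class). Without the 2 cerebella with Y-linked footprints, also added later, 3 and 1 genes passed (classes 4 and 0), with 157 for the embryo and 1 for the cerebellum effect.

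The embryo effect (264 genes) became 855 in DESeq2 and 919 in voom. The cerebellum effect (171) became 406 in DESeq2, 2911 in voom, 60 when thinned and 9 when fitted on its own 6 libraries. Leaving out 1 library gave 4 to 472 genes higher, 4 to 651 lower, 5 to 874 in the embryo class, 3 to 103 in the cerebellum class, 30 to 1897 for the embryo effect and 18 to 346 for the cerebellum effect. The largest of these counts came without mutant embryo 1 or control cerebellum 3, or without cKO cerebellum 2 for the cerebellum class, and the smallest without control embryo 2 or cKO cerebellum 1. The cause was not tested. The median absolute log2 change was 0.273 in embryos and 0.176 in cerebella with libraries thinned to 1 total, and 0.2673 and 0.1524 unthinned.

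The main fit did not pair libraries by replicate number. In deviations from the group mean, same-numbered mutants and controls correlated at 0.0537 to 0.0839 in embryos, each best with its own number. Other embryo pairs were at -0.0426 to -0.0216. In cerebella same-numbered pairs were at 0.461, -0.105 and 0.375, and other pairs at -0.456 to 0.175. Whether the numbers mark pairs is not given in the sources used here. With a replicate block 30 genes were higher and 78 lower, 75 of the 107 kept.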

Other observations

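Of 23 interferon response genes, 20 were higher in mutant embryos and 17 lower in cKO cerebella, and 0 passed in either tissue or for the difference (edgeR; 5, 0 and 4 had an unadjusted p below 0.05 in embryos, in cerebella and for the difference, and DESeq2 called 2, 0 and 1). Choroid plexus genes were higher in cKO cerebella for 15 of 16, summing to 5395, 4425 and 6958 CPM against 6410, 1825 and 3176 in controls, so that the groups overlapped (0 passed, edgeR, 3 had an unadjusted p below 0.05, DESeq2 called 0 and voom 12). Microglial genes were higher in cKO cerebella for 13 of 14, with sums of 438 to 536 CPM against 358 to 471, which also overlapped (0 passed in edgeR, 1 had an unadjusted p below 0.05, DESeq2 called 0 and voom 8).

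Further monoamine genes, named here after their values were seen, were high in the cKO libraries that held Hox, Dbh and Slc6a4 footprints. The vesicular transporter Slc18a2 was at 14.2, 1.1 and 32.9 CPM in cKO cerebella against 0.675, 0.487 and 0.281 in controls, and the noradrenaline transporter Slc6a2 at 19.7, 1.84 and 30.1 against 1.94, 0.73 and 0.281. Both were high in cKO replicates 1 and 3. Their cerebellar effects passed (adjusted p = 0.0105 and 0.0325) and their differences of effects did not (adjusted p = 0.0718 and 0.277, edgeR quasi-likelihood test). Whether the source of these footprints was the cerebellum was not tested.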
